A study of Mus musculus with 6 samples.

Results

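The genes described here present peptides to T cells through the class I and class II molecules of the major histocompatibility complex (MHC). A total of 10 genes was chosen by name, 7 of class I (H2-K1, H2-D1, B2m, Tap1, Tap2, Psmb8 and Psmb9) and 3 of class II (H2-Aa, H2-Ab1 and Cd74), and their probes were found by gene symbol. Of the 10 genes, 8 had a probe, and these 8 were read by 10 of the 26423 probes of the array, since Cd74 had 3. H2-K1 and H2-D1, the heavy chains of the classical class I molecules, had no probe under their symbol or gene identifier in the probe table and were not analysed here. The 8 genes were among 15459 tested of 19084 with a probe, and the probe that stood for each gene lay above the filter on dim values on 6 of 6 arrays.

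The study measured 6 single-colour (Cy5) arrays of ICR mouse cells, in 3 groups of 2 arrays each. PGC colonies came from gonads of 67 embryos at E11.5, and GSC colonies from testes of 80 mice aged 0 to 2 days after birth. Both kinds of colony were picked after 7 days in MCDB-201 medium at 5% O2, on laminin at 200 ng/cm2 and with insulin, transferrin, selenium and epidermal growth factor at 10 ng/ml. CD49f+ sorted cells came from 100 mice of the same age as the GSC donors, were taken by magnetic beads against the integrin subunit CD49f and were not cultured; their oxygen is labelled physiological hypoxia with no value. PGC stands for primordial germ cells and, in these labels, GSC for glandular stem cells. Animals were pooled within a group. The labels leave it unsaid whether a group's 2 arrays hold independent preparations, so the p-values reflect array-to-array spread that may be purely technical.

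A class I molecule is a heavy chain held by beta-2 microglobulin, the product of B2m. Its peptides are cut in the cytosol by the proteasome, in which Psmb8 and Psmb9 encode the interferon-inducible catalytic subunits that can replace constitutive ones, and are pumped into the endoplasmic reticulum by a transporter made of Tap1 and Tap2. Class II molecules pair an alpha chain, H2-Aa, with a beta chain, H2-Ab1, and travel with the invariant chain, Cd74, to endosomes, where cathepsins clear it. Nearly all nucleated cells can make class I, whereas class II belongs mainly to macrophages, dendritic cells and B cells, and the testis is known as a site of restrained immunity.

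The promoters of B2m, Tap1 and H2-Aa are shown because B2m of class I and H2-Aa of class II moved in opposite directions in the colonies and because the start of Tap1 lies beside that of Psmb9. Each window runs 5′ to 3′ on the gene's own strand from 250 bases before to 50 after the annotated start (RefSeq, GRCm38.p6): chr2:122147437-122147736 on the plus strand for B2m, chr17:34187306-34187605 on the plus strand for Tap1 and chr17:34287774-34288073 on the minus strand for H2-Aa. Capitals mark matches, on either strand, to 4 short motifs: GAAANNGAA, the core of the interferon-stimulated response element, TTCNNNGAA, the core of the gamma-activated site, ATTGG, the core of the Y box, and TGACGT, a CRE-like core of the X2 box.
B2m: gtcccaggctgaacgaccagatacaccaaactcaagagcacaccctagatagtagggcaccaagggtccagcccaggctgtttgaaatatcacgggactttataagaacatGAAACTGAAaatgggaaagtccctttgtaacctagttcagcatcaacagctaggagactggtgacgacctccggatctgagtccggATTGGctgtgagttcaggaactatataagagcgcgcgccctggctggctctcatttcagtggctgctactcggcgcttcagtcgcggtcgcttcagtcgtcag
Tap1: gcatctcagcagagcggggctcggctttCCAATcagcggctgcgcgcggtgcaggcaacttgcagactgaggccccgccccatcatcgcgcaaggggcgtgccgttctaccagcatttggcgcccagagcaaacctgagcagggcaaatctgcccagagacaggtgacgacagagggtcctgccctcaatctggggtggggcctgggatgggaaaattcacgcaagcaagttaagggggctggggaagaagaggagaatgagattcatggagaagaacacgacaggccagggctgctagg
H2-Aa: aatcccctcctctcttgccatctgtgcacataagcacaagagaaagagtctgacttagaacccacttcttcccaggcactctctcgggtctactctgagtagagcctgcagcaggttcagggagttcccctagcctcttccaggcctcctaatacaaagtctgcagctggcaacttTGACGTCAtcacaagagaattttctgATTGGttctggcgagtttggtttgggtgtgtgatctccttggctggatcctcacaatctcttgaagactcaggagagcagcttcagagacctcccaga

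With the annotated start counted as 0, the B2m window held the interferon core at -139 to -131 and a Y box core at -53 to -49. The H2-Aa window held a Y box core at -48 to -44 and a palindrome that matches the CRE-like core on both strands, at -74 to -69 and -72 to -67. Among all 32841 such windows, 8.56% held the interferon core, 8.30% the gamma-activated core, 37.4% the Y box core and 7.51% the CRE-like core, so the Y box letters alone are common. The starts of Tap1 and Psmb9 lay 226 bases apart on opposite strands, and their windows shared 275 bases, including the 1 Y box core printed in the Tap1 window. Psmb8 had a gamma-activated core at -97 to -89. These matches describe letters and say nothing of binding.

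Most class I genes measured were higher in both kinds of colony than in sorted cells, while the class II genes did not move as a group. Of 5 class I genes measured, 4 rose in GSC colonies, where 22.5% of all genes rose, and 4 rose in PGC colonies against sorted cells, where 22.8% of all genes rose; none fell in either comparison. The median class I difference was 1.37 on the log2 scale in GSC colonies and 1.23 in PGC colonies, beside medians of -0.01 and -0.02 over all genes tested. These comparisons share the sorted arrays. Without normalization between arrays, which moved the median over all genes to 0.47 in GSC colonies and 0.42 in PGC colonies, 8179 genes rose and 1732 fell in GSC colonies (3486 and 3793 with it), and 7573 rose and 1838 fell in PGC colonies (3517 and 3594 with it); B2m, Tap1 and Tap2 kept their calls and directions there, as did H2-Aa below. Levels are log2 intensities after normalization between arrays, a gene was called at a limma adjusted p under 0.05 over all genes tested, and in RNA of mixed cells a change in the number of cells of a type and a change of RNA per cell cannot be told apart.

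**Figure D1:**
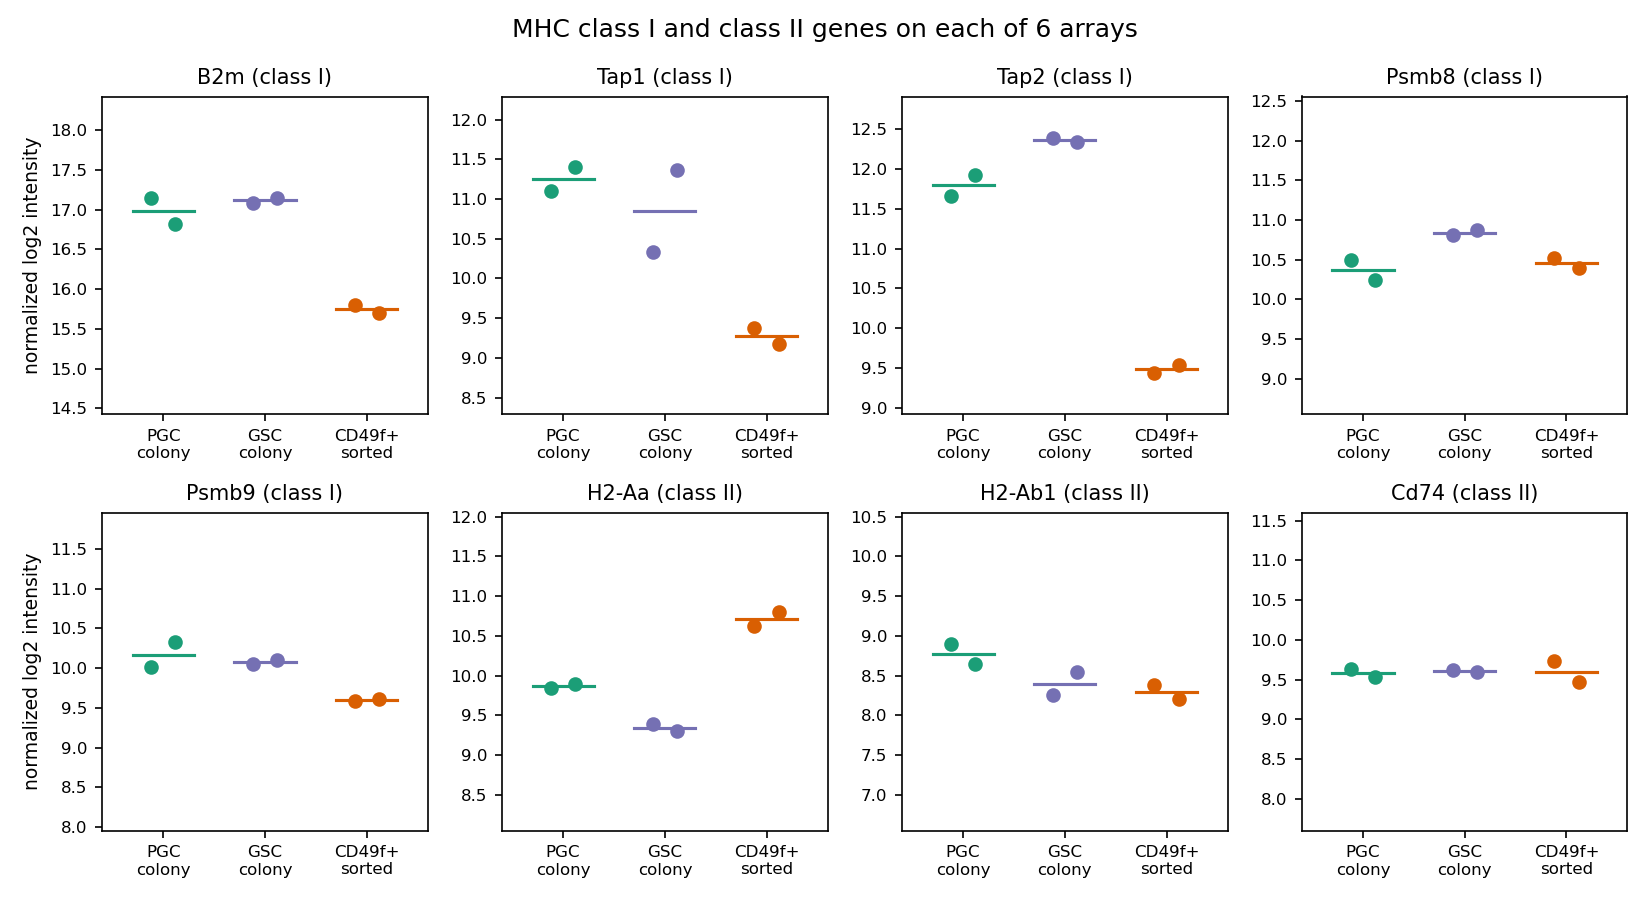
Normalized log2 intensity (y axis, each panel spanning 4 log2 units) of 8 MHC genes in PGC colonies, GSC colonies and CD49f+ sorted cells (x axis); points are the 2 arrays of a group and lines their mean. B2m, Tap1 and Tap2 lie higher on all 4 colony arrays than on both sorted arrays, and H2-Aa lies lower.

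The transporter genes showed the largest rises of the members. Tap2 read 11.66 and 11.93 in PGC colonies, 12.39 and 12.34 in GSC colonies, and 9.44 and 9.53 in sorted cells. Every colony array exceeded both sorted arrays by more than 2 log2 units. The difference from sorted cells was 2.88 ± 0.13 (SE) in GSC colonies, 7.36-fold, the 308th largest rise of 15459 genes (limma adjusted p = 1.2e-05), and 2.31 ± 0.13 in PGC colonies, 4.94-fold (adjusted p = 3.3e-05). Tap1 read 11.10 and 11.40 in PGC colonies, 10.33 and 11.36 in GSC colonies, and 9.37 and 9.18 in sorted cells. The GSC colony arrays lay further apart for this gene (SD 0.73) than the arrays of either other group (SD 0.21 in PGC colonies and 0.14 in sorted cells), yet both stood above the sorted arrays. Tap1 was higher than in sorted cells by 1.98 ± 0.33 in PGC colonies (adjusted p = 0.0032) and by 1.57 ± 0.33 in GSC colonies (adjusted p = 0.0082). Leaving out GSC colony replicate 1 gave a rise of 2.08 in GSC colonies, and leaving out replicate 2 gave 1.04, with the call kept in both.

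B2m, the light chain shared by all class I molecules, also rose in both kinds of colony. It read 17.15 and 16.82 in PGC colonies, 17.09 and 17.15 in GSC colonies, and 15.80 and 15.70 in sorted cells. Colony and sorted arrays did not overlap. The difference from sorted cells was 1.37 ± 0.14 in GSC colonies, 2.58-fold (limma adjusted p = 0.00039), and 1.23 ± 0.14 in PGC colonies, 2.35-fold (adjusted p = 0.00062). With median centring the differences were 1.82 and 1.38, and without normalization between arrays 2.24 and 1.78, so their size depends on the scaling.

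The immunoproteasome genes moved little. Psmb9 read 10.01 and 10.33 in PGC colonies, 10.05 and 10.10 in GSC colonies, and 9.58 and 9.61 in sorted cells. All 4 colony arrays were above the sorted ones, and the rise was 0.57 ± 0.13 in PGC colonies (limma adjusted p = 0.014) and 0.47 ± 0.13 in GSC colonies (adjusted p = 0.028), calls lost in 2 and 4 of 17 other settings. Psmb8 read 10.50 and 10.24 in PGC colonies, 10.81 and 10.87 in GSC colonies, and 10.52 and 10.39 in sorted cells. It was the class I gene that did not pass against sorted cells, with a difference of 0.38 ± 0.13 in GSC colonies (95% interval 0.06 to 0.70; adjusted p = 0.054) and -0.08 ± 0.13 in PGC colonies (95% interval -0.40 to 0.24; adjusted p = 0.65). The GSC arrays lay above both sorted arrays, and the PGC arrays overlapped them. In GSC colonies Psmb8 passed in 8 of 17 other settings.

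**Figure D2:**
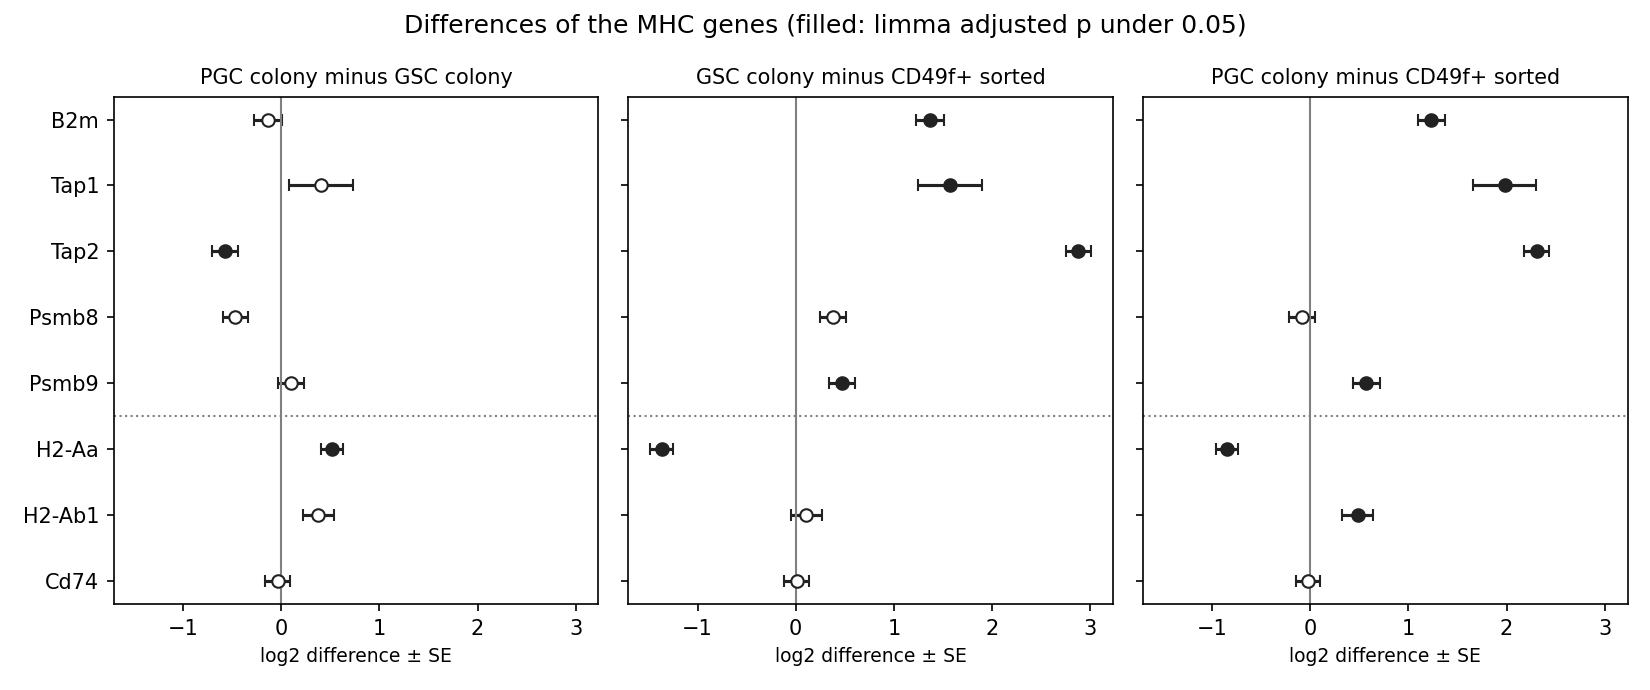
Log2 difference of each MHC gene (x axis) with its SE (bars) for PGC colonies minus GSC colonies, GSC colonies minus CD49f+ sorted cells and PGC colonies minus CD49f+ sorted cells; filled points passed limma at an adjusted p under 0.05, and the dotted line parts class I (above) from class II. The Tap2 points at 2.88 and 2.31 and the H2-Aa points at -1.37 and -0.85 stand at the ends of the comparisons with sorted cells.

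Among the class II genes, H2-Aa, the alpha chain, was lower in both kinds of colony. It read 9.84 and 9.89 in PGC colonies, 9.39 and 9.30 in GSC colonies, and 10.63 and 10.80 in sorted cells, with no overlap between any groups. H2-Aa fell by 1.37 ± 0.11 in GSC colonies (2.58-fold lower; limma adjusted p = 0.00016) and by 0.85 ± 0.11 in PGC colonies (1.80-fold lower; adjusted p = 0.0014). Its beta chain partner H2-Ab1 was not called lower in either kind of colony. However, its sorted arrays lay little above the filter's level of 7.82, the 30th percentile of an array, so a fall would be understated. H2-Ab1 read 8.90 and 8.65 in PGC colonies, 8.25 and 8.55 in GSC colonies, and 8.38 and 8.20 in sorted cells. GSC colony and sorted arrays overlapped, with a difference of 0.11 ± 0.16 (95% interval -0.27 to 0.49; adjusted p = 0.62). PGC colony arrays lay above both, by 0.49 ± 0.16 against sorted cells (adjusted p = 0.046), a call lost in 8 of 16 other settings. In all, 1 of the 3 class II genes fell in GSC colonies, where 24.5% of all genes fell. In PGC colonies against sorted cells 1 fell and 1 rose, where 23.2% of all genes fell and 22.8% rose. With 3 genes, these counts are near the shares over all genes.

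The 3 probes of Cd74, the invariant chain, disagreed. The brightest, PH_mM_0012569, read 9.63 and 9.53 in PGC colonies, 9.62 and 9.60 in GSC colonies, and 9.73 and 9.47 in sorted cells, so that all groups overlapped. Its difference from sorted cells was 0.01 ± 0.13 in GSC colonies (95% interval -0.29 to 0.32; limma adjusted p = 0.95) and -0.02 ± 0.13 in PGC colonies (adjusted p = 0.91). Probe mMC024080 read 8.81 and 8.36 in PGC colonies, 7.50 and 7.60 in GSC colonies, and 9.10 and 8.98 in sorted cells. Both GSC colony arrays were under the filter's level of 7.82 there, the 30th percentile of an array, and the probe was at least 2.33-fold lower in GSC colonies than in sorted cells (adjusted p = 0.00059 in a fit over all probes). Probe PH_mM_0016294 read 8.03 and 8.52 in PGC colonies, 7.85 and 7.18 in GSC colonies, and 8.28 and 8.71 in sorted cells. It fell by 0.98 ± 0.28 in GSC colonies (adjusted p = 0.030). Neither dimmer probe passed in PGC colonies against sorted cells, with differences of -0.46 ± 0.17 and -0.22 ± 0.28 (adjusted p = 0.068 and 0.58). Of all probes with a symbol, 47.2% were called in either direction in GSC colonies and 45.9% in PGC colonies against sorted cells. With the mean of its probes in place of the brightest one, Cd74 fell by 0.82 in GSC colonies (adjusted p = 0.0014). Without normalization between arrays the brightest probe was called higher there, at 0.48, where the median over all genes was 0.47. The call of Cd74 rests on which probe is read and on the scaling.

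**Figure D3:**
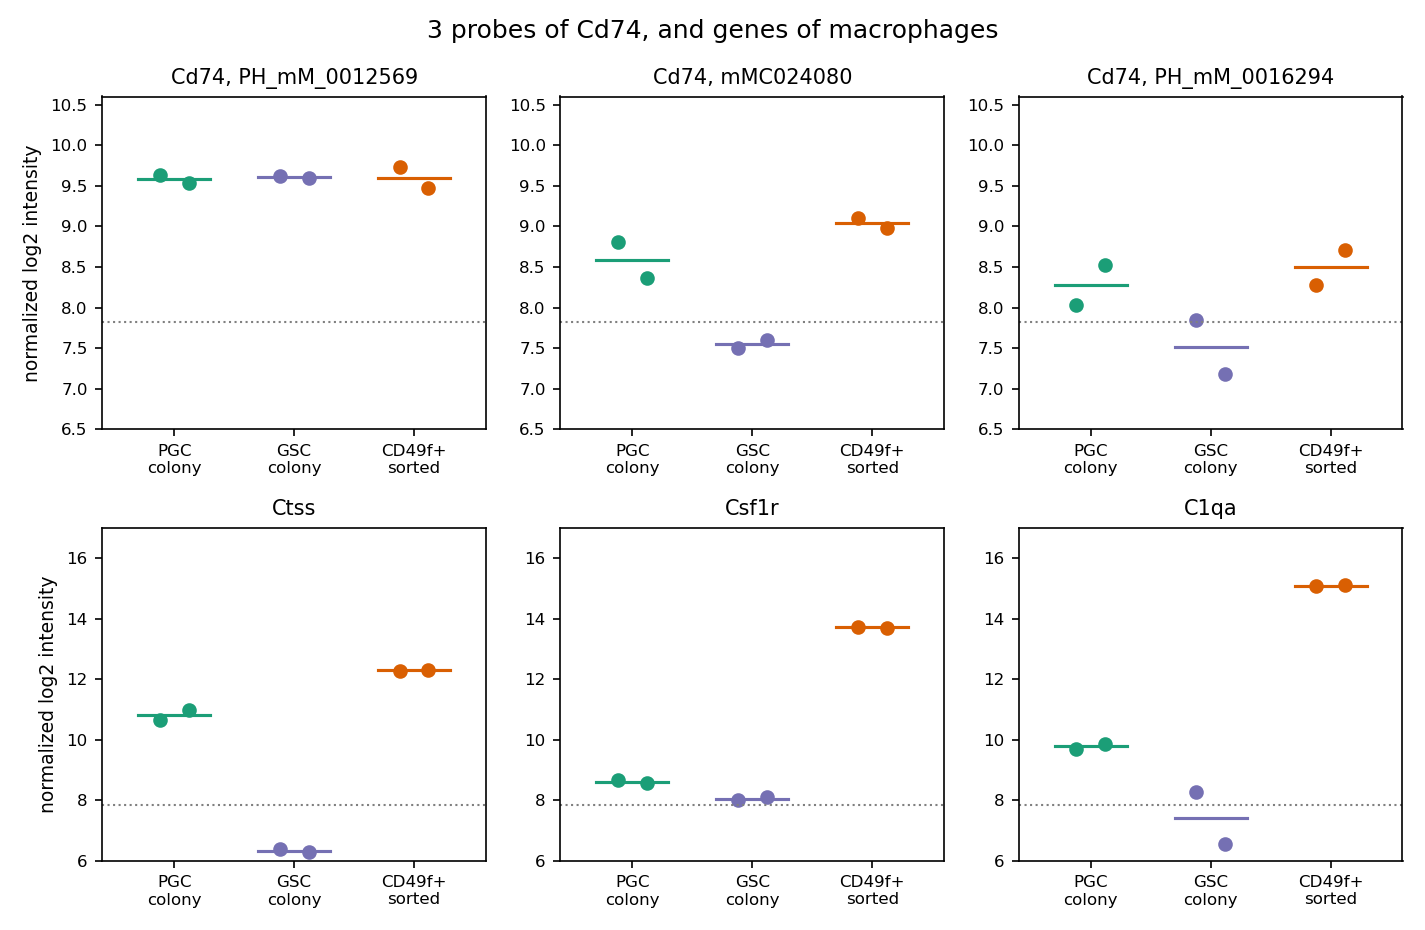
Normalized log2 intensity (y axis) of the 3 probes of Cd74 (upper row) and of Ctss, Csf1r and C1qa (lower row) in PGC colonies, GSC colonies and CD49f+ sorted cells (x axis); points are arrays, lines group means and the dotted line the filter's level of 7.82. Probe PH_mM_0012569 stays between 9.47 and 9.73 on 6 arrays, whereas the other probes and the lower row are lowest in GSC colonies.

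Few of these genes differed between PGC colonies and GSC colonies. Tap2 was lower in PGC colonies by -0.57 ± 0.13 on the log2 scale (limma adjusted p = 0.032) and was the 1 class I gene of 5 that fell, where 7.98% of all genes fell. H2-Aa was higher in PGC colonies by 0.52 ± 0.11 (adjusted p = 0.031) and was the 1 class II gene of 3 that rose, where 7.08% of all genes rose. These calls were lost in 7 and 8 of 17 other settings, H2-Aa when any single array was left out. B2m differed by -0.13 ± 0.14 (95% interval -0.47 to 0.21), Psmb9 by 0.10 ± 0.13 (-0.23 to 0.42) and Tap1 by 0.41 ± 0.33 (-0.38 to 1.20), and the arrays overlapped for each of them. Psmb8, at -0.47 ± 0.13, and H2-Ab1, at 0.38 ± 0.16, did not overlap but did not pass (adjusted p = 0.065 and 0.17). Cd74 probe mMC024080 was at least 1.70-fold higher in PGC colonies (adjusted p = 0.010 over all probes, of which 15.1% were called). The other Cd74 probes did not pass there, the brightest at -0.03 ± 0.13 (adjusted p = 0.89) and PH_mM_0016294 at 0.76 ± 0.28 (adjusted p = 0.13).

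Genes of class I loading and trimming were read against the shares of all genes called, 22.5% higher and 24.5% lower in GSC colonies and 22.8% higher and 23.2% lower in PGC colonies, both against sorted cells. Of 10 measured, 5 rose and 1 fell in GSC colonies, with a median difference of 0.42, and 4 rose and 2 fell in PGC colonies, with a median of 0.14; the falls in PGC colonies are near the share over all genes. Pdia3, the ERp57 subunit of the peptide-loading complex, exceeded its sorted level by at least 2.04-fold in GSC colonies and at least 1.97-fold in PGC colonies, since both sorted arrays lay under the filter's level (limma adjusted p = 0.00066 and 0.00081). The chaperone calreticulin, Calr, rose by 0.95 ± 0.25 in GSC colonies and 1.15 ± 0.25 in PGC colonies. Psmb10, the third inducible catalytic subunit, rose by 0.63 ± 0.16 and 0.58 ± 0.16. Tapbp, the tapasin that bridges transporter and heavy chain, went the other way in PGC colonies: it read 12.93 and 13.26 there, 13.76 and 13.67 in GSC colonies, and 13.90 and 13.93 in sorted cells. It fell by 0.82 ± 0.14 against sorted cells (adjusted p = 0.0037), while the GSC colony difference of -0.20 ± 0.14 did not pass (adjusted p = 0.29). Psme1, a proteasome activator subunit, fell by 0.56 and 0.46 in GSC and PGC colonies, differences that were 0.10 and 0.09 without normalization between arrays. Nlrc5, the transactivator of class I genes, differed by -0.03 ± 0.15 in both (95% intervals -0.39 to 0.33 and -0.39 to 0.32). It read 8.50 and 8.19 in PGC colonies, 8.24 and 8.46 in GSC colonies, and 8.34 and 8.42 in sorted cells. These values lie little above the filter's level of 7.82, so a change could be understated, and its other probe was too dim to be tested.

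Constitutive proteasome subunits served as a comparison for Psmb8 and Psmb9. Of 12 measured, 1 rose in GSC colonies and 4 in PGC colonies against sorted cells, and none fell. Over all genes, 22.5% rose and 24.5% fell in GSC colonies, and 22.8% rose and 23.2% fell in PGC colonies. Psmb5, the constitutive counterpart of Psmb8, rose by 0.40 ± 0.11 in GSC colonies and 0.53 ± 0.11 in PGC colonies, and the core subunit Psma4 rose by 0.59 in PGC colonies. Psmb6, the counterpart of Psmb9, differed by -0.45 ± 0.26 and -0.24 ± 0.26, and Psmb7, that of Psmb10, by -0.30 ± 0.12 and 0.16 ± 0.12, none of which passed. Psma6 and Psmb7 were the 2 that rose in PGC colonies against GSC colonies, by 0.54 ± 0.12 and 0.45 ± 0.12, where 7.08% of all genes rose.

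Other class I and class I-like heavy chains included a few large changes. Of 27 listed, 13 had a probe and 9 were tested; 2 rose and 2 fell in GSC colonies, and 1 rose and 3 fell in PGC colonies against sorted cells, beside 22.5% and 24.5% of all genes in GSC colonies and 22.8% and 23.2% in PGC colonies. Mr1, which presents vitamin metabolites, read 10.28 and 10.26 in PGC colonies, 11.70 and 11.71 in GSC colonies, and 9.20 and 9.18 in sorted cells. The groups were fully apart, with rises over sorted cells of 1.08 ± 0.10 in PGC colonies and 2.51 ± 0.10 in GSC colonies (limma adjusted p = 0.00025 and 7.7e-06). Mr1 and Cd1d1, which presents lipids, were lower in PGC than in GSC colonies, by -1.43 ± 0.10 and -1.39 ± 0.14 (adjusted p = 0.00038 and 0.0018). Fcgrt, the neonatal Fc receptor, rose by 0.89 ± 0.19 in GSC colonies, and Hfe, a class I-like regulator of iron uptake, fell by 0.94 ± 0.12 in GSC colonies and 1.40 ± 0.12 in PGC colonies. Cd1d1 fell by 1.42 ± 0.14 in PGC colonies against sorted cells, and differed by -0.03 ± 0.14 in GSC colonies, which did not pass. The class I-like chain H2-T24 fell by 0.50 in GSC colonies, its call in PGC colonies at -0.37 turning to 0.02 without normalization between arrays.

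The rest of the class II pathway held a few large changes. Of 16 measured, 2 rose and 6 fell in GSC colonies against sorted cells, where 22.5% of all genes rose and 24.5% fell. In PGC colonies against sorted cells 2 rose and 4 fell, where 22.8% of all genes rose and 23.2% fell. The falls in PGC colonies were near the share over all genes, and the rises in both kinds of colony were below it. One of the 6 falls in GSC colonies, that of Rfxank, a subunit of the factor that binds class II promoters, was -0.37 and turned to 0.16 without normalization between arrays. Ctss, the cathepsin that trims the invariant chain, read 10.66 and 10.96 in PGC colonies, 6.38 and 6.28 in GSC colonies, and 12.27 and 12.30 in sorted cells. It was at least 22.1-fold lower in GSC colonies than in sorted cells (limma adjusted p = 2.2e-06), fell by 1.47 ± 0.14 in PGC colonies (adjusted p = 0.00025), and was at least 7.95-fold higher in PGC than in GSC colonies (adjusted p = 2.3e-05). Cd40, a co-stimulatory receptor, fell by 1.87 ± 0.15 in GSC colonies and 2.29 ± 0.15 in PGC colonies, while its other probe differed by 0.23 and -0.02 and did not pass. Ifi30, the lysosomal thiol reductase GILT, went the other way, rising by 1.96 ± 0.13 and 1.28 ± 0.13. The class II beta chain H2-Eb2 rose by 0.59 ± 0.13 in GSC colonies, and H2-DMa, a chain of the peptide-exchange molecule, by 0.60 ± 0.12 in PGC colonies. Legumain, Lgmn, was lower in PGC colonies than in GSC colonies by -1.65 ± 0.18 and than in sorted cells by -1.15 ± 0.18. Ciita, the master regulator of class II genes, read 7.85 and 7.68 in PGC colonies, 7.39 and 7.54 in GSC colonies, and 7.96 and 8.04 in sorted cells. Those values lie near the filter's level on all arrays, and Ciita was at least 1.13-fold lower in GSC colonies (adjusted p = 0.012).

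**Figure D4:**
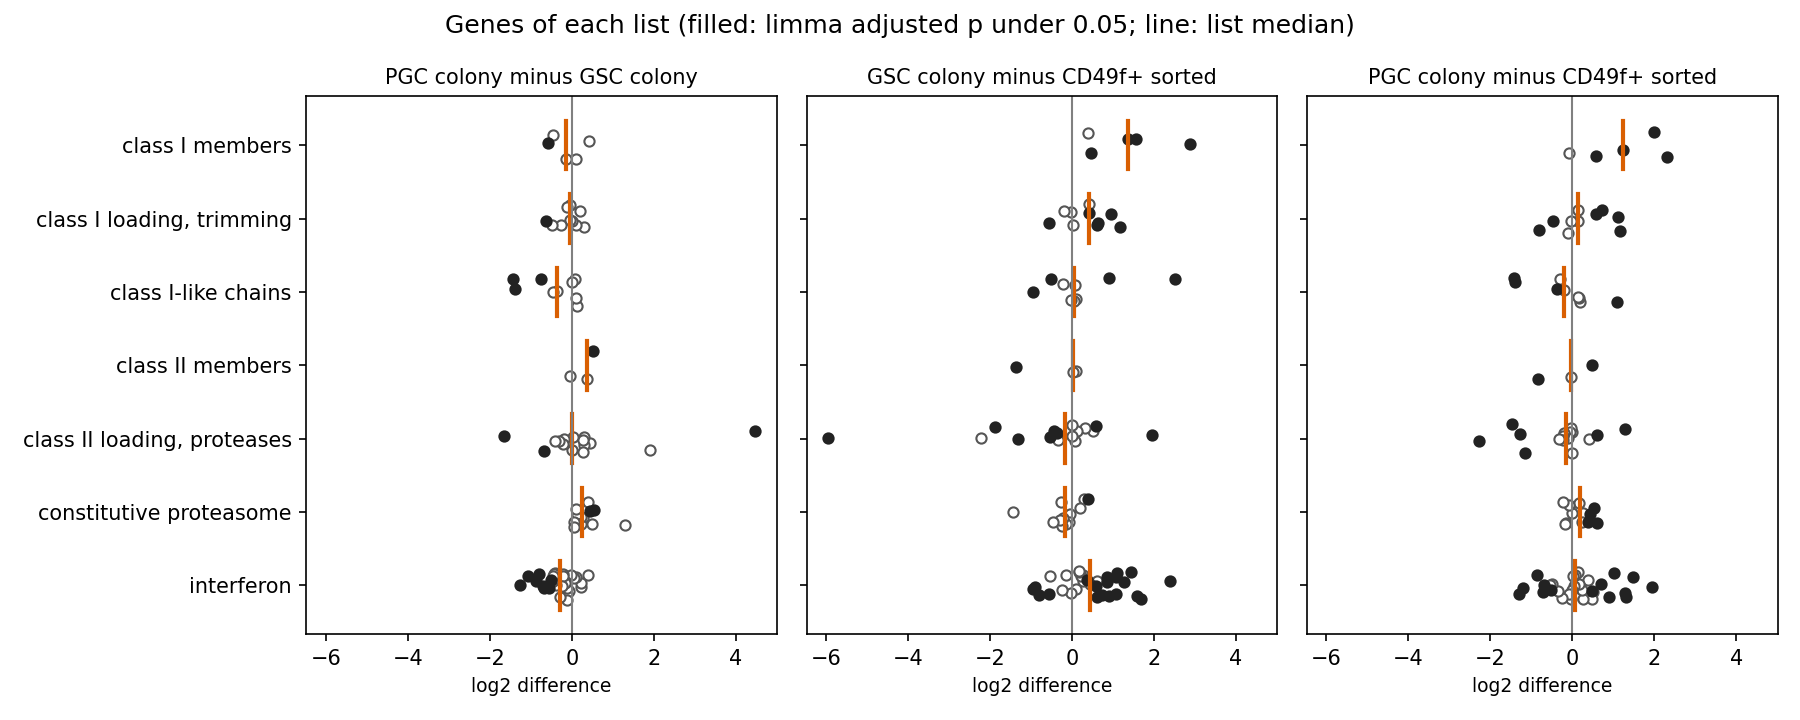
Log2 differences (x axis) of the tested genes in 7 lists (y axis) for PGC colonies minus GSC colonies, GSC colonies minus CD49f+ sorted cells and PGC colonies minus CD49f+ sorted cells; each point is a gene, filled where limma's adjusted p was under 0.05, and the line is the list's median. Class I members have medians of 1.37 and 1.23 against sorted cells, and Ctss is the class II pathway point at -5.95 in GSC colonies minus sorted cells.

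Interferons induce the class I pathway, and their signalling and response genes were followed beside it. Of 31 measured, 15 rose and 4 fell in GSC colonies against sorted cells (median 0.44), 8 rose and 6 fell in PGC colonies against sorted cells (median 0.05), and 8 fell and 0 rose in PGC against GSC colonies (median -0.30). The counts in PGC colonies against sorted cells are near the 22.8% of all genes that rose and 23.2% that fell; 22.5% rose and 24.5% fell in GSC colonies against sorted cells, and 7.08% rose and 7.98% fell in PGC against GSC colonies. The ubiquitin-like Isg15 rose by 2.38 ± 0.12 in GSC colonies and 1.94 ± 0.12 in PGC colonies. The receptor gene Ifnar1 rose by 1.67 ± 0.13 and 1.30 ± 0.13 on 1 probe, and differed by -0.16 and -0.12 on the other. Ifng itself read 9.26 and 9.12 in PGC colonies, 8.71 and 8.85 in GSC colonies, and 7.74 and 7.68, under the filter's level, in sorted cells, at least 2.58-fold and 1.94-fold higher in the colonies (limma adjusted p = 0.00012 and 0.00047). Irf8, an interferon regulatory factor of myeloid cells, fell by 0.91 ± 0.17 in GSC colonies and 1.20 ± 0.17 in PGC colonies, and Xaf1, an interferon-induced gene, fell by 0.96 in GSC colonies. Irf1 differed by -0.53 ± 0.38 and -0.49 ± 0.38 and did not pass, its sorted arrays reading 11.27 and 12.49. The GTPase gene Gbp3 and the response gene Ifit2 were lower in PGC than in GSC colonies, by -1.27 ± 0.13 and -1.08 ± 0.18, and Gbp3 fell by 1.30 ± 0.13 in PGC colonies against sorted cells.

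Markers of other cell types moved with the same comparisons, and their part in these results was not tested. Of all genes, 22.5% rose and 24.5% fell in GSC colonies and 22.8% rose and 23.2% fell in PGC colonies against sorted cells. In PGC against GSC colonies, 7.08% of all genes rose and 7.98% fell. Of 22 macrophage and dendritic cell markers measured, 20 fell and 1 rose in GSC colonies against sorted cells. In PGC colonies, 20 of these markers fell and 2 rose against sorted cells, and 14 rose and 1 fell against GSC colonies. Their summed normalized level over 23 genes was 25404 to 28966 in PGC colonies, 12325 to 12424 in GSC colonies and 214269 to 217117 in sorted cells, and 3, 8 and 1 of the 23 lay under the filter's level on both arrays of these groups. Csf1r, the receptor that macrophages need, read 8.66 and 8.56 in PGC colonies, 8.00 and 8.10 in GSC colonies, and 13.72 and 13.69 in sorted cells. C1qa, a macrophage complement gene, read 9.70 and 9.84 in PGC colonies, 8.26 and 6.56 in GSC colonies, and 15.07 and 15.10 in sorted cells. Ptprc, the pan-leukocyte CD45 gene, fell by 0.63 ± 0.12 in PGC colonies and 0.80 ± 0.12 in GSC colonies. Lymphocyte markers fell in 2 of 6 cases in GSC colonies and 1 of 6 in PGC colonies, near the shares of all genes that fell.

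Markers of other cells of the gonad also moved against sorted cells. Of 8 fibroblast markers tested, 8 rose in GSC colonies and 8 in PGC colonies. Sertoli cell markers fell in 9 of 10 cases in GSC colonies and in 10 of 10 in PGC colonies. Endothelial markers fell in 8 of 10 cases with 1 rise in GSC colonies and in 10 of 10 in PGC colonies. In PGC colonies the call of Eng at -0.48 turned to 0.04 without normalization between arrays. The summed level of 9 fibroblast markers was 255251 to 266603 in PGC colonies, 505927 to 521143 in GSC colonies and 22035 to 25016 in sorted cells. Bright genes weigh most in such a sum, and the brightest of the 9 was Dcn. On the log2 scale Dcn read 17.06 and 16.86 in PGC colonies, 17.91 and 17.91 in GSC colonies, and 14.13 and 13.86 in sorted cells. The labels name primordial germ cells for the PGC colonies. Under the filter's level on both arrays lay 4, 2 and 3 of 10 germ cell markers in PGC colonies, GSC colonies and sorted cells. Of 8 tested, 4 were higher and 1 lower in GSC colonies than in sorted cells. In PGC colonies, 0 were higher and 3 lower than in sorted cells, and 0 higher and 4 lower than in GSC colonies. Over all genes, 22.5% were higher and 24.5% lower in GSC colonies than in sorted cells. In PGC colonies the shares were 22.8% and 23.2% against sorted cells and 7.08% and 7.98% against GSC colonies. Culture, selection for CD49f and, for PGC colonies, developmental stage differ together between these groups and cannot be told apart.

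The genes whose profile over the 6 arrays lay closest to a member were found by the root mean square difference of log2 levels after centring each gene on its own mean. H2-K1, meant as the class I anchor, has no probe here, and B2m took its place. Itga5, the fibronectin receptor subunit, came first at 0.059 log2 units, followed by C1galt1c1, Odr4, Nox4 and Pard3 at 0.064 to 0.072. For Cd74, read by its brightest probe, Mmp21 came first at 0.017, followed by the odorant receptor genes Olfr741 and Olfr697 and by Iqcm and Banf2 at 0.027 to 0.032. With 6 arrays these are descriptions of shape only.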

How the data were processed

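RNA of 6 samples was amplified and labelled with Cy5 from 1 µg each, per the labels' protocols, with a lower limit of 6 on the RNA integrity number. The authors deposited linear intensity for each probe, with values below 0 on 4 arrays (52 to 474 probes); how background was treated, the scanner and its software are not given in these sources. Array medians were 587.4 and 541 in PGC colonies, 606.5 and 558.1 in GSC colonies and 393.4 and 406.5 in sorted cells. The probe table gave 1 symbol to 21876 probes and none to 4547. Here normexp correction (offset 50) was followed by log2 and by quantile normalization between arrays (limma 3.58.1, R 4.3.3). The brightest of a gene's probes stood for it, and a gene was tested when 2 of 6 arrays reached the 30th percentile of their array. One fit (lmFit, eBayes, 3 residual degrees of freedom) held all arrays, with Benjamini-Hochberg adjustment over 15459 genes, or over 17370 probes for Cd74 probe by probe. Fold changes of dim probes are understated by the offset; a fold is a lower bound, taken from the 30th percentile, where neither array of the dimmer group reached it. The number of arrays limits the precision. In simulated data for GSC colonies against sorted cells over 15459 genes, 5.97%, 61.2% and 84.8% of 1.5-, 2- and 4-fold changes were recovered, with 8 false calls. Only 67, 67 and 66 genes were given these changes, whereas in the data 22.5% of all genes rose and 24.5% fell. Those figures therefore need not hold for the data. The members and lists were chosen with earlier results of these data known. Genes were named as all members, a fixed set of pathway and leukocyte genes, and the 2 largest rises and falls past the threshold in each pathway list and comparison, to which Cd1d1 in GSC colonies and the other probes of Cd40 and Ifnar1 were added. H2-K1, named for the likeness search, has no probe, so B2m was used, decided with the values in view. Alternatives covered background, scaling, filter, probe choice, samples fitted, replicate block, prior trend and each array left out.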

Additional observations from a re-analysis of the deposited data

How the results depend on the processing

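Of 17 other settings, all kept the calls of B2m, Tap1, Tap2 and H2-Aa against sorted cells. The calls of Psmb9, and of Psmb8 in GSC colonies, changed in some of them, as given above. In the settings that left no array out and normalized between arrays, 11965 to 19084 genes were tested. Of these, 3207 to 4020 rose and 3188 to 4064 fell in GSC colonies against sorted cells. In PGC colonies against sorted cells, 3251 to 3863 rose and 3155 to 3888 fell. Class II calls in GSC colonies against sorted cells numbered 3 without normalization between arrays and 2 when a gene's probes were averaged, against 1. Without normalization H2-Aa was lower (-0.89), but Cd74 (0.48) and H2-Ab1 (0.47) were called higher, where the median over all genes was 0.47. With averaged probes both H2-Aa and Cd74 were called lower. Class II calls in PGC colonies against sorted cells numbered 1, against 2, with median centring, no filter, the replicate block or an intensity trend. They also numbered 1 with the 50th percentile filter, under which H2-Ab1 was not tested. In PGC against GSC colonies, class I calls numbered 2, against 1, without normalization, with median centring and with the 50th percentile filter, and 0 with only the 2 groups compared, 0 with the replicate block and 0 to 1 when an array was left out; class II calls numbered 2, against 1, with the mean of probes, and 0 with only the 2 groups compared, with the replicate block and whichever array was left out. Genes called between the colonies numbered 1445 to 2039 when an array was left out, against 2329, with 1445 without GSC colony replicate 1 and 1527 without PGC colony replicate 2. The cause of these changes was not tested.

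Among the 8 MHC genes, differences that turned sign were ones that had not passed; of the wider lists, the called genes that turned sign without normalization (Psme1, H2-T24, Rfxank and Eng) are given with their values above. In PGC colonies against sorted cells, Psmb8 was 0.35 and Cd74 0.40 without normalization (the median over all genes was 0.42), Cd74 was 0.0012 with median centring, and leaving out an array gave -0.22 to 0.049 for Psmb8 and -0.15 to 0.11 for Cd74. In GSC colonies against sorted cells, Cd74 was -0.82 with the mean of its probes, and leaving out an array gave -0.12 to 0.14 for Cd74 and -0.041 to 0.26 for H2-Ab1. In PGC against GSC colonies, Cd74 was 0.59 with the mean of its probes, and leaving out an array gave -0.084 to 0.014 for Cd74, -0.30 to 0.033 for B2m, -0.11 to 0.93 for Tap1 and -0.060 to 0.26 for Psmb9.

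Replicate numbers are shared by the groups with no stated pairing, and deviations of same-numbered arrays correlated at -0.18 for PGC and GSC colonies, 0.33 for PGC colonies and sorted cells and -0.34 for GSC colonies and sorted cells. With the replicate number as a block, 6804 genes were called in GSC colonies, 6637 in PGC colonies against sorted cells and 1707 between the colonies, against 7279, 7111 and 2329. With the GSC colony numbers crossed, a setting chosen after seeing the data, these counts were 7831, 7672 and 2703, and 2 class I genes were called between the colonies.

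With 2 arrays a group, small changes such as those of Psmb8 and Psmb9 in GSC colonies passed in some settings and not in others. Levels near the 30th percentile, as for Ciita, Nlrc5, H2-Ab1 and the dimmer Cd74 probes, give bounds, wide intervals or understated changes.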

Other observations

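The GSC colony arrays disagreed on some genes of the pathway, picked here after their values were seen. H2-DMb1, a chain of the class II peptide-exchange molecule, read 10.64 and 10.72 in PGC colonies, 6.85 and 10.71 in GSC colonies, and 11.08 and 10.93 in sorted cells. The proteasome subunit Psma2 read 15.79 and 16.05 in PGC colonies, 13.63 and 15.62 in GSC colonies, and 16.11 and 16.03 in sorted cells. Neither gene passed in any comparison, and in both, as in Tap1, GSC colony replicate 1 was the lower array. Replicate 2 was the lower for other listed genes, among them C1qa at 8.26 and 6.56 and Cxcl9 at 10.29 and 9.52.

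Of the 22 macrophage and dendritic cell markers, Itgax, Spi1 and Cd14 had a call opposite to most of the list in at least 1 comparison and were picked for that after their values were seen. Itgax, the dendritic cell integrin CD11c, read 11.84 and 12.01 in PGC colonies, 7.68 and 8.82 in GSC colonies, and 8.12 and 8.03 in sorted cells. Itgax rose in PGC colonies by 3.85 ± 0.34 against sorted cells and by 3.67 ± 0.34 against GSC colonies (limma adjusted p = 0.00022 and 0.0012). Spi1, the myeloid transcription factor PU.1, rose against sorted cells by 0.93 ± 0.13 in GSC colonies and 0.97 ± 0.13 in PGC colonies (adjusted p = 0.0014 and 0.0012). Cd14, a co-receptor for bacterial lipopolysaccharide, fell in PGC colonies by 1.18 ± 0.11 against GSC colonies (adjusted p = 0.0010), while 14 markers of the list rose there.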
